A study of Rattus norvegicus with 372 samples.

Results

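Bile acids are made from cholesterol in the liver, and the genes described here encode the enzymes of that conversion: Cyp7a1, Cyp7b1, Cyp8b1, Cyp27a1, Hsd3b7, Akr1d1, Amacr, Scp2, Slc27a5 and Baat. They were chosen by name as textbook enzymes of the pathway, by a rule that uses no measured value, although earlier results of these data were known. Of the 10 genes, 8 had a probe in the whole-transcriptome (WT) assay, among 20946 gene symbols, and Cyp8b1 and Baat were not analysed here. A mean of at least 10 counts per well, the minimum for a test, was reached by 5 of them (Cyp27a1, Hsd3b7, Akr1d1, Amacr and Scp2), as by 10191 genes of the assay. Cyp7a1, Cyp7b1 and Slc27a5 stayed below it and are given by their counts.

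Bile acid synthesis starts by 2 routes. In the classic route Cyp7a1, which sets the rate of the pathway, hydroxylates the cholesterol ring, and in the alternative route Cyp27a1 oxidises the side chain in the mitochondrion before Cyp7b1 hydroxylates the ring. Both routes then share Hsd3b7, which oxidises the ring hydroxyl, and Akr1d1, which reduces the ring double bond, while Cyp8b1 decides between cholic acid and its less hydroxylated relatives. Cyp27a1 also opens the side-chain oxidation of the classic route. Amacr, a racemase, and the thiolase product of Scp2 finish that shortening in the peroxisome, and Slc27a5 and Baat couple bile acids to coenzyme A and then to taurine or glycine. In hepatocytes the pathway is restrained by bile acids themselves through the receptor encoded by Nr1h4 and the repressor encoded by Nr0b2.

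The counts came from hepatocytes of male Wistar rats, cultured between layers of collagen and exposed to 14 chemicals at 2 concentrations each for 24 h. Batch 1 and batch 2 used 1 rat each, with 3 wells of one plate per treatment, so the wells are technical replicates and the 2 rats are the only biological ones. The libraries of each batch were also made and sequenced separately, so rat, library preparation and sequencing run cannot be told apart in a difference between batches. All treatments and the vehicle contained 0.5% DMSO, culture medium alone was a further control, and every well, controls included, received dexamethasone, insulin and epidermal growth factor. In TempO-Seq, a pair of detector oligos that anneal next to each other on an RNA is joined by a ligase, amplified and read, so that a count is a read of a joined probe.

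The lower and higher concentrations were 400 and 10000 µM for acetaminophen, caffeine, isoniazid and valproic acid. They were 18 and 450 µM for chloramphenicol, 16 and 400 µM for diclofenac, 0.08 and 2 µM for doxorubicin, 12 and 300 µM for indomethacin, and 0.6 and 15 µM for ketoconazole. Naproxen was given at 80 and 2000 µM, ranitidine at 160 and 4000 µM, simvastatin at 2.4 and 60 µM, sulfasalazine at 4 and 100 µM, and WY14643 at 8 and 200 µM. Vehicle was present in 3 wells of batch 1 and 6 of batch 2.

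The 90 wells of batch 1 and the 96 of batch 2 were each measured by the WT assay and again, from the same lysate, by the smaller ST assay. WT wells held 2.29 to 8.98 M counts and ST wells 0.558 to 2.21 M, and levels are given as CPM, the counts of a gene scaled to a total of 1 M per well. Probes differ in how well they anneal, so CPM compares wells for one gene and never one gene with another. The summed CPM of 8 hepatocyte markers, Alb and Hnf4a among them, was 37312 to 40764 in vehicle wells of batch 1 and 40435 to 45133 in those of batch 2. Most of this sum came from Alb, Apoa1, Tf and Ttr, with medians of 6776 to 12459 CPM over all wells, against 200 for Hnf4a. At higher concentrations the sum reached down to 7210 and 7177, in wells with diclofenac. Markers of Kupffer cells and leukocytes (6 genes) summed to 20.2 to 40.6 CPM in vehicle wells and 3.74 to 69.0 at higher concentrations, and those of endothelial cells (4 genes) to at most 5.22 CPM in any well. Stellate cell markers (4 genes with a column) summed to at most 4.23 CPM, and biliary markers (4 genes) to 33.1 to 49.0 CPM in vehicle wells, and 4.36 to 74.2 at higher concentrations. Of the biliary markers, Epcam (median 28.7 CPM) and Sox9 (3.36) were counted in every well, while Krt19 had a median of 0.136 CPM and Krt7 of 0. CPM is scaled to the total of each well and does not measure the number of its cells. A smaller share of hepatocytes among the cells and a smaller share of these RNAs in each hepatocyte cannot be told apart in lysates. The part of these markers in the results below was not tested.

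RefSeq promoters of the assembly GRCr8, up to 250 bases before the annotated start, were available for 7 of the 10 genes. The 3 printed here belong to tested genes whose window lay outside the gene, and are shown because Amacr and Scp2 went up with the nuclear receptor agonist WY14643 while Hsd3b7 went down. Capitals mark the letters AGGTCA, the core motif of nuclear receptor sites, and GGGCGG, the GC box, searched on both strands (CCGCCC is the GC box read on the other strand, and GC boxes may overlap). The Amacr window is chr2:61673085-61673290 on the plus strand, that of Hsd3b7 is chr1:191842438-191842687 on the plus strand, and that of Scp2 is chr5:128110016-128110265 on the minus strand.
Amacr: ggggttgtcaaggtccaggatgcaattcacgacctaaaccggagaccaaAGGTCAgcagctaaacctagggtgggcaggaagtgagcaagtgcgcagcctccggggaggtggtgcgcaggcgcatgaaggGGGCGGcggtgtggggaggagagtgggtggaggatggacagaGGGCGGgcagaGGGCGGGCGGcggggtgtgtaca
Hsd3b7: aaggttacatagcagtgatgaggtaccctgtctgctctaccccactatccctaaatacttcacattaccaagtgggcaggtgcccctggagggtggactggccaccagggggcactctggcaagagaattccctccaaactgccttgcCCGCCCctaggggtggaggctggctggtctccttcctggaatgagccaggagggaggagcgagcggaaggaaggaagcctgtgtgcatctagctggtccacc
Scp2: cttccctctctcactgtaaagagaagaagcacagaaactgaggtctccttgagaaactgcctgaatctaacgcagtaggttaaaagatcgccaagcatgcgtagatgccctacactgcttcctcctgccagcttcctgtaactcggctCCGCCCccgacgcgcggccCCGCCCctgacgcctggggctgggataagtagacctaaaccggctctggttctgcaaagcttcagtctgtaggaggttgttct
The Amacr window held 1 AGGTCA and 4 GGGCGG, and those of Hsd3b7 and Scp2 held 1 and 2 GC boxes. Among 33469 rat promoters cut to the same length as that of Amacr, 11.6% held AGGTCA and 25.1% held GGGCGG, and at the full 250 bases the shares were 14.1% and 30.5%. A direct repeat of AGGTCA with 1 base between the copies, the known kind of site of the receptor that WY14643 activates, was in none of the 3 windows and in 0.0508% of all promoters at 250 bases. These matches are letters in a window and were not tied to any change in level.

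Cyp7a1 was barely counted in these cultures. By WT assay, 9 of the wells held any count of it, none more than 2, and its 10 counts in all came to 0.00798 CPM of the summed wells (95% exact Poisson interval 0.00383 to 0.0147). The 3 counts taken as the floor amount to 0.445 CPM in a WT well of mean depth. In the ST assay, which uses the same probe, 43 wells held a count, none above 3, and the 60 counts came to 0.230 CPM (0.176 to 0.296). No treatment exceeded 2 summed WT counts in either batch, so a change with treatment was not detectable at the depth of the WT assay. In the ST assay, 10000 µM caffeine was the treatment with a Cyp7a1 count in each of its 6 wells, chosen here after its values were seen, with 1, 1 and 3 counts in batch 1 (1.15, 0.958 and 3.25 CPM) and 2, 2 and 2 in batch 2 (1.34, 1.35 and 1.53 CPM). By WT assay the same lysates held 1 count in batch 1 and 0 in batch 2. Vehicle held 1 count in its 3 ST wells of batch 1, 0.728 CPM in that well, and 0 in the 6 of batch 2. The treated wells were thus above every vehicle well of their batch by CPM, at no more than the 3 counts of the floor per well. In batch 1, the caffeine wells with 1 count held no more than the vehicle well with 1. Their CPM was higher because their totals were lower (870728 and 1043422 against 1373676 counts). The gene was tested in neither assay. Intervals and floors cover counting error only, since reads are not single molecules.

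Cyp7b1, which acts after Cyp27a1 in the alternative route, was found in 112 wells with at most 22 counts. Over all wells it stood at 0.415 CPM in batch 1 (0.363 to 0.472) and 0.137 CPM in batch 2 (0.110 to 0.167), intervals that did not overlap, while the vehicle wells alone had the opposite order with overlapping intervals. In batch 1, the wells with 10000 µM acetaminophen held 11, 9 and 22 counts, a sum of 42 at 2.78 CPM (2.00 to 3.76), where the vehicle wells held 1, 0 and 1, a sum of 2 at 0.103 CPM (0.0125 to 0.373). Batch 2 showed no such rise, with 0, 0 and 2 counts at 10000 µM acetaminophen. Its 6 vehicle wells held 12 counts at 0.3001 CPM (0.155 to 0.524), all of them in the 3 wells of one plate (5, 4 and 3) and none in the 3 wells of the other. Of the 28 treatments, 4 in batch 1 had a counting interval wholly above that of vehicle, and the other 3 were 400 µM caffeine (17 counts), 400 µM isoniazid (16) and 400 µM diclofenac (13). In batch 2 none lay above and 1 lay below. Wells vary by more than counting error, so these intervals are no test of the treatments.

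Slc27a5, the ligase that activates bile acids with coenzyme A, was found in 62 wells with 105 counts in all. It stood at 0.0390 CPM in batch 1 and 0.121 CPM in batch 2. The highest sum was 12 counts with 10000 µM caffeine in batch 2, and 10 of these came from 1 well. That sum, 0.514 CPM (0.265 to 0.897), overlapped the vehicle of batch 2 at 0.1501 CPM (0.0551 to 0.327), and no treatment had an interval outside that of its vehicle.

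**Figure D1:**
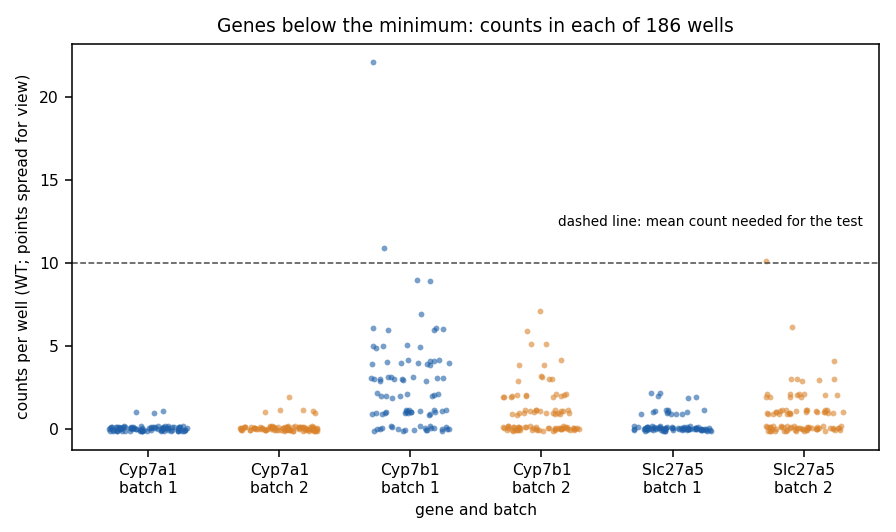
Counts per well (vertical axis) of Cyp7a1, Cyp7b1 and Slc27a5 in the WT assay, by gene and batch (horizontal axis), one point per well, with a dashed line at 10 counts. The highest point, 22 counts, is Cyp7b1 in a well of batch 1 with 10000 µM acetaminophen, and Cyp7a1 lies at 0 to 2 throughout.

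The 5 tested enzymes and 28 treatments made 140 pairs, each compared with vehicle in one fit of both batches by edgeR's quasi-likelihood test, with a Benjamini-Hochberg adjusted p under 0.05 over all genes as the call. The level rose in 33 pairs (23.6%) and fell in 32 (22.9%), while over all genes tested 15.2% of gene and treatment pairs were higher and 15% lower. Together 65 pairs (46.4%) were called, against 30.2% of all pairs. All 5 enzymes were called with 10000 µM acetaminophen, 2000 µM naproxen and both concentrations of WY14643, where 78.9%, 53.8%, 51.3% (200 µM) and 56.2% (8 µM) of all genes were called. With 10000 µM acetaminophen the median log2 fold change (L2FC) of the 5 was -2.10, with 4 lower and 1 higher (-0.02 over all genes). Since wells of one rat share their source, these p-values measure the spread between wells, and 50 of the 65 calls (35.7% of pairs, where all genes gave 20.4%) were also made when the wells of each rat were summed to 1 sample.

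**Figure D2:**
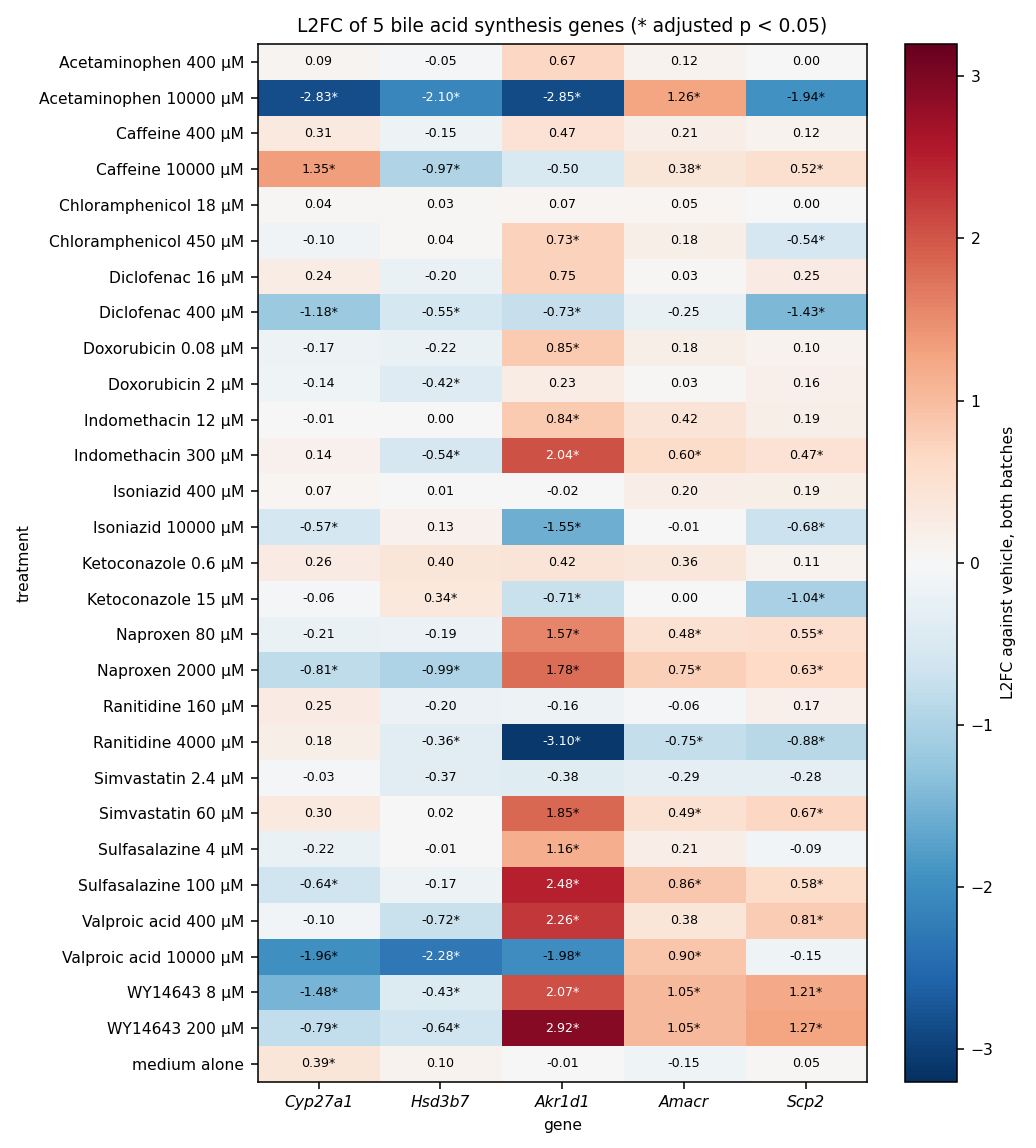
L2FC of the 5 tested enzymes against vehicle (colour and printed value, log2 scale) for the 28 treatments and culture medium alone (rows) in the fit of both batches, with a star where the adjusted p was under 0.05. Akr1d1 holds both the highest value, with 200 µM WY14643, and the lowest, with 4000 µM ranitidine.

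Cyp27a1, the mitochondrial hydroxylase that opens the alternative route, had more falls than rises. It fell with 8 treatments, rose with 1 and missed the threshold with 19. The vehicle wells held 65.5, 75.01 and 54.5 CPM in batch 1, 65.0 ± 10.3 (SD, n = 3), and from 82.6 to 117 with a median of 96.0 in batch 2, 98.5 ± 13.5 (SD, n = 6). With 10000 µM acetaminophen the wells held 7.69, 5.38 and 5.03 CPM in batch 1 and 9.05, 12.7 and 11.9 in batch 2, all far below every vehicle well. The L2FC was -2.83 (SE 0.179, adjusted p = 1.1e-33), 7.13-fold lower by the fit. L2FC uses totals adjusted by edgeR's TMM method and CPM uses plain totals, so L2FC and ratios of CPM differ. With this treatment 38.8% of all genes were higher and 40.1% lower. Acetaminophen, an analgesic, is toxic to hepatocytes when its oxidation outruns glutathione.

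Valproic acid, an antiepileptic that disturbs mitochondrial fatty acid oxidation, also lowered Cyp27a1. At 10000 µM, where 33.5% of genes were higher and 33.2% lower, its wells held 20.5, 25.6 and 31.2 CPM in batch 1 and 30.7, 19.4 and 20.1 in batch 2. The groups did not overlap with vehicle, and the L2FC was -1.96 (SE 0.163, adjusted p = 3.9e-23). The hepatocyte markers of the same wells summed to 18828 to 22738 CPM in batch 1 and 16000 to 17685 in batch 2, below every vehicle well, and their part in this fall was not tested. The other lower levels of Cyp27a1 were L2FC -1.48 with 8 µM WY14643, -1.18 with 400 µM diclofenac, -0.81 with 2000 µM naproxen, -0.79 with 200 µM WY14643, -0.64 with 100 µM sulfasalazine and -0.57 with 10000 µM isoniazid.

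The single rise of Cyp27a1 came with 10000 µM caffeine, a treatment with 34.6% of genes higher and 31.6% lower. The wells held 140, 172 and 157 CPM in batch 1 and 181, 218 and 274 in batch 2, each above every vehicle well of its batch. The L2FC was 1.35 (SE 0.143, adjusted p = 2.7e-16), with 1.47 in batch 1 and 1.30 in batch 2. Hsd3b7 moved the other way with the same wells, as given below.

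Hsd3b7, the dehydrogenase that both routes share, fell with 11 treatments, rose with 1 and missed the threshold with 16. Its vehicle wells were close together, at 82.2, 75.01 and 78.0 CPM in batch 1, 78.4 ± 3.59 (SD, n = 3), and 83.3 to 113 with a median of 107 in batch 2, 103 ± 11.4 (SD, n = 6). Valproic acid at 10000 µM gave 27.7, 29.1 and 20.7 CPM in batch 1 and 15.2, 20.9 and 21.4 in batch 2. Every one of these wells lay below all vehicle wells, with an L2FC of -2.28 (SE 0.160, adjusted p = 5.9e-29), and the hepatocyte markers given above were also below vehicle. Acetaminophen at 10000 µM gave 11.5, 10.9 and 10.9 CPM in batch 1 and 21.5, 19.9 and 21.4 in batch 2. This was again without overlap with vehicle, at an L2FC of -2.10 (SE 0.161, adjusted p = 4.1e-26).

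The next largest falls of Hsd3b7 were L2FC -0.99 with 2000 µM naproxen and -0.97 with 10000 µM caffeine. The naproxen wells held 39.1 to 40.1 CPM in batch 1 and 47.5 to 59.0 in batch 2, and the caffeine wells 32.6 to 43.1 and 34.5 to 58.5. These also lay below the vehicle wells of their batch. So did the sum of the hepatocyte markers, at 20137 to 21219 CPM over both batches with naproxen and 21542 to 29790 with caffeine. Hnf4a, a member of that sum, was itself called higher with naproxen (L2FC 0.49) and with caffeine (0.30). The remaining 7 falls ran from -0.72, with 400 µM valproic acid, to -0.36, with 4000 µM ranitidine, and included both concentrations of WY14643 (-0.64 at 200 µM and -0.43 at 8 µM). The hepatocyte markers with 200 µM WY14643 summed to 30783 to 33850 CPM in batch 1 and 34727 to 35779 in batch 2, below every vehicle well. With 8 µM they summed to 38154 to 38486 and 37495 to 39613, within the vehicle range in batch 1 and below it in batch 2. Hnf4a by itself was called higher with 200 µM (0.48) and not called with 8 µM.

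With 15 µM ketoconazole, an inhibitor of steroid-forming cytochrome P450 enzymes, Hsd3b7 was at 120, 131 and 97.3 CPM in batch 1 and 84.9, 111 and 118 in batch 2. Its wells of batch 1 were above vehicle and those of batch 2 overlapped it. The L2FC of 0.34 (SE 0.140, adjusted p = 0.0357) passed the threshold, with 25% of genes higher and 26.3% lower. The call was lost with each rat as 1 sample (adjusted p = 0.106), without batch in the model (0.109), without the wells numbered 2 (0.195) and without those numbered 3 (0.0685).

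**Figure D3:**
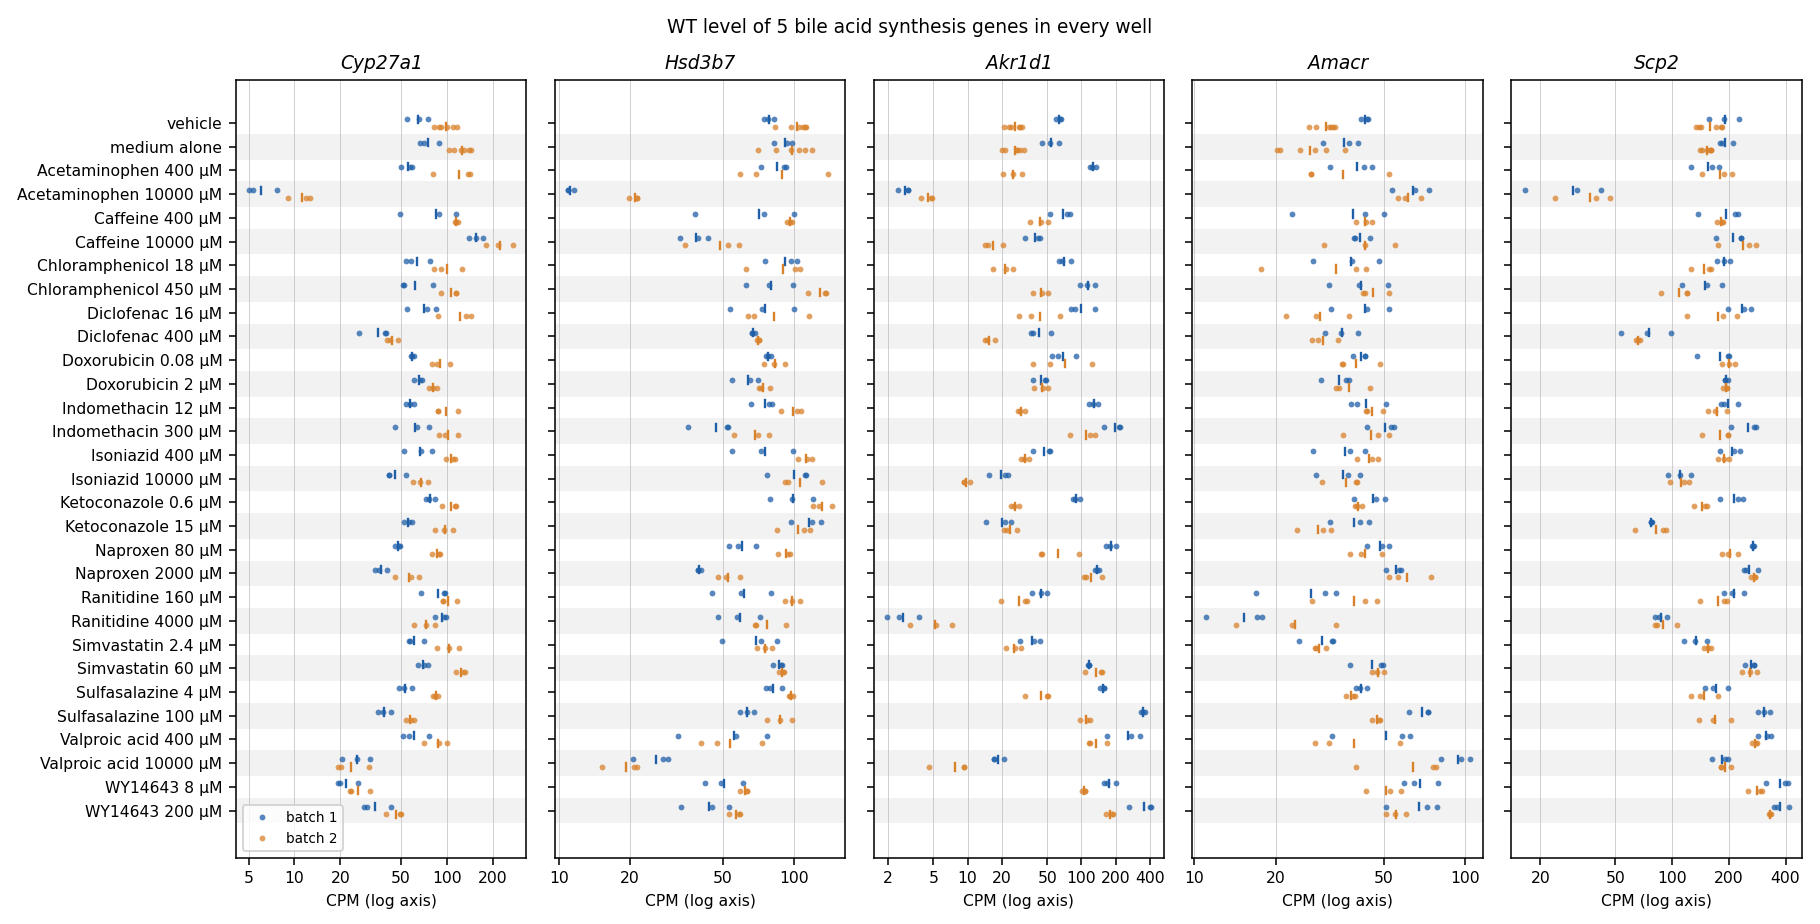
Level of the 5 tested enzymes in CPM (log axis), one point per WT well, for vehicle, culture medium and each of the 28 treatments (rows), coloured by batch, with a short bar at the mean of each batch. Wells with 10000 µM acetaminophen lie below all vehicle wells for Cyp27a1, Hsd3b7, Akr1d1 and Scp2 and above them for Amacr.

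Akr1d1, the reductase that gives bile acids their bent ring, moved most among the 5 and in both directions. It rose with 12 treatments, fell with 6 and missed the threshold with 10. Its basal level was higher in batch 1 than in batch 2, with vehicle wells at 60.0, 65.7 and 64.5 CPM in batch 1, 63.4 ± 3.00 (SD, n = 3), and 21.1 to 30.3 with a median of 26.2 in batch 2, 26.0 ± 3.72 (SD, n = 6). WY14643, an agonist of the fatty acid receptor encoded by Ppara, gave 404, 408 and 261 CPM at 200 µM in batch 1 and 188, 184 and 166 in batch 2. All 6 wells were several times above the vehicle of their batch. The L2FC was 2.92 (SE 0.230, adjusted p = 1.5e-24), 7.57-fold higher by the fit, in a treatment with 26% of genes higher and 25.3% lower.

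Sulfasalazine, an aminosalicylate used in bowel inflammation, gave 345, 330 and 360 CPM of Akr1d1 at 100 µM in batch 1 and 96.6, 119 and 111 in batch 2. The L2FC was 2.48 (SE 0.229, adjusted p = 6.1e-19), with 21.3% of genes higher and 19.6% lower. Further rises of Akr1d1 were L2FC 2.26 with 400 µM valproic acid, 2.07 with 8 µM WY14643, 2.04 with 300 µM indomethacin, 1.85 with 60 µM simvastatin and 1.78 with 2000 µM naproxen. The remaining 5 ran from 1.57, with 80 µM naproxen, to 0.73, with 450 µM chloramphenicol. Of the 12 rises, 6 were at the lower concentration of the chemical. Those with indomethacin, sulfasalazine and WY14643 came in part from plate 5 of batch 1, which held no vehicle. With 12 µM indomethacin the mean was 128 CPM in batch 1 against 63.4 in vehicle, and 29.5 against 26.0 in batch 2. With 0.08 µM doxorubicin it was 69.2 in batch 1 and 71.2 in batch 2, where 1 well held 123.

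All 6 falls of Akr1d1 were at higher concentrations. With 4000 µM ranitidine, a histamine receptor blocker, the wells held 3.74, 1.95 and 2.51 CPM in batch 1 and 5.24, 7.30 and 3.09 in batch 2. These did not overlap with vehicle, and the L2FC was -3.10 (SE 0.302, adjusted p = 3.2e-18), where 32.3% of genes were higher and 33.9% lower. Acetaminophen at 10000 µM gave 3.02, 2.46 and 3.02 CPM in batch 1 and 3.89, 4.74 and 4.84 in batch 2. Here the L2FC was -2.85 (SE 0.308, adjusted p = 4.4e-16). The other falls were -1.98 with 10000 µM valproic acid, -1.55 with 10000 µM isoniazid, -0.73 with 400 µM diclofenac and -0.71 with 15 µM ketoconazole. The hepatocyte markers summed to 14634 to 18338 CPM in batch 1 and 12430 to 13622 in batch 2 with 4000 µM ranitidine, and to 22896 to 26341 and 26756 to 35914 with 10000 µM acetaminophen, below vehicle in every well.

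Amacr, the peroxisomal racemase, rose with 10 treatments, fell with 1 and missed the threshold with 17. Vehicle wells held 41.0, 43.7 and 43.4 CPM in batch 1, 42.7 ± 1.47 (SD, n = 3), and 26.5 to 33.1 with a median of 31.7 in batch 2, 30.6 ± 2.64 (SD, n = 6). Acetaminophen at 10000 µM, which lowered the other 4 enzymes, gave 53.6, 73.5 and 65.2 CPM in batch 1 and 68.7, 60.0 and 56.2 in batch 2. All these wells were above vehicle, with an L2FC of 1.26 (SE 0.153, adjusted p = 1.4e-13). By mean CPM, Amacr stood higher with 10000 µM valproic acid, at 93.9 in batch 1 and 64.3 in batch 2, against 64.1 and 61.6 with acetaminophen. Its L2FC with valproic acid was the lower one, as given below.

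WY14643 at 8 µM, with 28% of genes higher and 28.2% lower, gave 59.6, 78.9 and 64.8 CPM of Amacr in batch 1 and 43.0, 57.6 and 52.7 in batch 2. The L2FC was 1.05 (SE 0.153, adjusted p = 1.2e-09), and 200 µM also gave 1.05. The other rises of Amacr ran from 0.90, with 10000 µM valproic acid, to 0.38, with 10000 µM caffeine. Its single fall, with 4000 µM ranitidine, came from 17.8, 11.01 and 17.1 CPM in batch 1 and 23.0, 33.3 and 14.2 in batch 2. The wells of batch 1 were below vehicle and those of batch 2 overlapped it, and the L2FC was -0.75 (SE 0.164, adjusted p = 2.3e-05).

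Scp2, whose locus encodes the peroxisomal thiolase and a sterol carrier protein, rose with 9 treatments, fell with 6 and missed the threshold with 13. Its 3 probes were added and cannot be assigned here to one product. Vehicle wells held 189, 227 and 157 CPM in batch 1, 191 ± 35.0 (SD, n = 3), and 135 to 184 with a median of 157 in batch 2, 159 ± 22.6 (SD, n = 6). WY14643 at 200 µM gave 362, 349 and 416 CPM in batch 1 and 333, 330 and 326 in batch 2. The wells with 8 µM held 396, 414 and 316 CPM in batch 1 and 252, 300 and 294 in batch 2. Both concentrations lay above all vehicle wells, with L2FC of 1.27 (SE 0.130, adjusted p = 8.9e-17) at 200 µM and 1.21 (SE 0.130, adjusted p = 1.5e-15) at 8 µM.

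The lowest Scp2 came with 10000 µM acetaminophen, with 16.5, 42.0 and 31.4 CPM in batch 1 and 39.4, 46.8 and 23.9 in batch 2. The L2FC was -1.94 (SE 0.146, adjusted p = 9.5e-27). Diclofenac, an anti-inflammatory drug, at 400 µM gave 53.8, 98.2 and 73.5 CPM in batch 1 and 65.6, 64.6 and 67.3 in batch 2. Its wells were below all vehicle wells at an L2FC of -1.43 (SE 0.141, adjusted p = 2.3e-18), with 36% of genes higher and 35.8% lower, and its hepatocyte markers were the lowest of any treatment, as given above. Further falls were -1.04 with 15 µM ketoconazole, -0.88 with 4000 µM ranitidine, -0.68 with 10000 µM isoniazid and -0.54 with 450 µM chloramphenicol. The sum of the hepatocyte markers was below every vehicle well there too. Over both batches it was 19934 to 23644 CPM with ketoconazole, 25439 to 30874 with isoniazid and 22850 to 31646 with chloramphenicol. The 7 other rises ran from 0.81, with 400 µM valproic acid, to 0.47, with 300 µM indomethacin. Between the 2 most counted Scp2 probes the ratio of counts was 4.27 in vehicle of batch 1 and 3.23 in that of batch 2, and over the groups it ran from 2.60 to 5.39.

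Several treatments did not move the 5 enzymes as one block, while others moved all those called one way. With 400 µM diclofenac and 4000 µM ranitidine 4 were lower, and with 10000 µM isoniazid 3 were, with none higher. With 60 µM simvastatin and 80 µM naproxen 3 were higher and none lower. Of all genes, 35.8%, 33.9%, 17.3%, 11.4% and 8.64% went the same way with these treatments, in that order. With WY14643, Akr1d1, Amacr and Scp2 rose at both concentrations while Cyp27a1 and Hsd3b7 fell. With 10000 µM acetaminophen Amacr rose and the other 4 fell, and with 10000 µM valproic acid Amacr rose (0.90) while Cyp27a1, Hsd3b7 and Akr1d1 fell. Over the 60 group means of log2(CPM + 1), centred within batch, Pearson's r was 0.78 for Akr1d1 and Scp2, 0.66 for Cyp27a1 and Hsd3b7 and -0.55 for Cyp27a1 and Amacr. These values are a description over groups that share wells, plates and depth.

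Culture medium alone was the check on the vehicle. Of the 5 enzymes 1 was called there, where 7.51% of genes were higher and 5.1% lower than with vehicle. Cyp27a1 was at 89.3, 66.8 and 70.9 CPM in medium of batch 1 and from 104 to 145 with a median of 126 in that of batch 2, which overlapped vehicle. Its L2FC was 0.39 (SE 0.128, adjusted p = 0.0313), and the call was lost with each rat as 1 sample, without batch in the model, without the filter on low counts and without any one replicate number.

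Of the 140 pairs, 42 (30%) were called with one sign in each batch by itself, compared with 15.8% of all gene and treatment pairs. The treatment effect differed between the batches in 10 pairs (7.14%, with 2.44% over all pairs), but in only 3 without the wells numbered 2, in 6 without those numbered 3 and in 3 by ST assay, which tests 3 of the enzymes. Without the wells numbered 1, most of the 10 were kept. Scp2 with 100 µM sulfasalazine (-0.98) and Cyp27a1 with 10000 µM valproic acid (-1.295) were called there in addition. Of the 10, 7 were Akr1d1, whose vehicle level was the one of the 5 that differed most between the batches, and for the other 4 genes the count was 3 of 112 (2.68%). Akr1d1 fell by 4.35 on the log2 scale with 4000 µM ranitidine in batch 1 and by 2.25 in batch 2, and with 10000 µM acetaminophen by 4.05 and 2.11.

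Plates of batch 1 differed in their controls. Acetaminophen, chloramphenicol, indomethacin, ketoconazole, sulfasalazine and WY14643 were on plate 5 of batch 1, which held no vehicle, while their wells of batch 2 shared plate 3 with 3 vehicle wells. For Akr1d1, the L2FC at the lower concentrations of these 6 chemicals had a median of 1.07 in batch 1, positive for 6 of 6, and of 0.16 in batch 2. Acetaminophen at 400 µM shows it, with 118 to 135 CPM and an L2FC of 0.99 in batch 1 and 20.6 to 30.2 CPM and an L2FC of -0.01 in batch 2. The 8 chemicals that shared a plate with vehicle had medians of 0.14 and 0.73. Between the vehicle plates of batch 2, which were the only ones that could be compared, Akr1d1 differed by 0.07 (SE 0.235, adjusted p = 0.905). In batch 1 the plate and these 6 chemicals cannot be told apart.

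**Figure D4:**
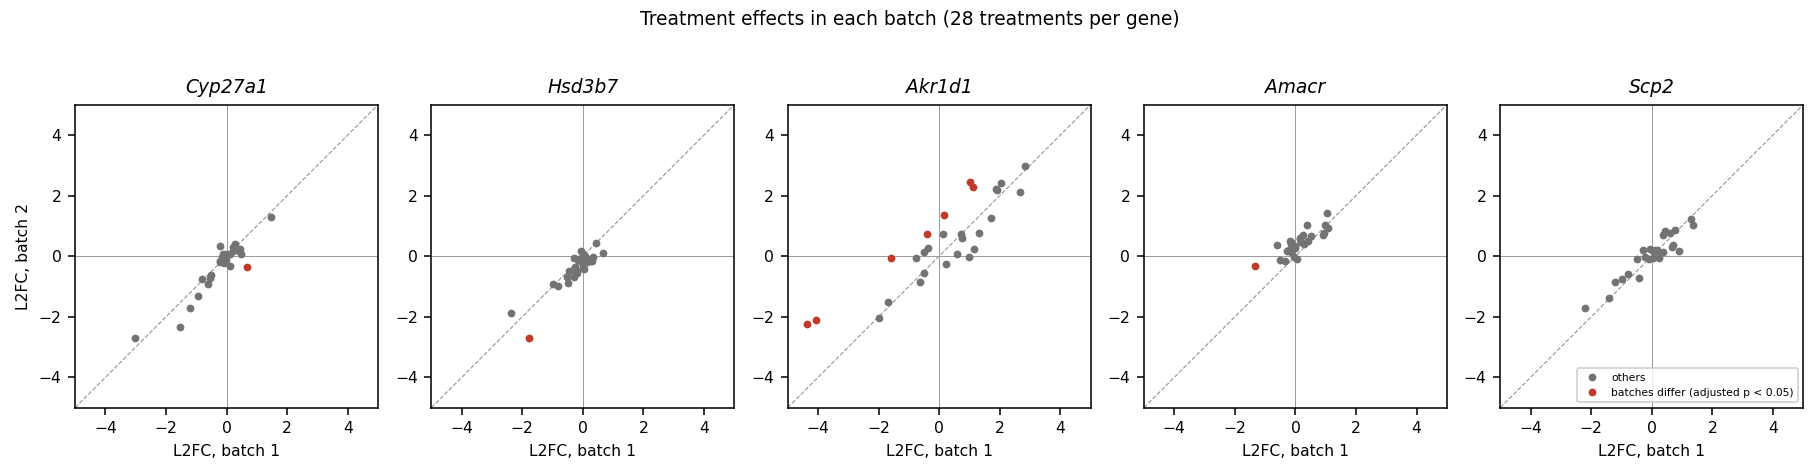
L2FC against vehicle in batch 2 (vertical axis) and batch 1 (horizontal axis), both on the log2 scale, one point per treatment and enzyme, with the pairs that differed between the batches marked. Akr1d1 gives 7 of the 10 marked points.

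At the higher concentrations 22 of 70 pairs (31.4%) rose and 29 (41.4%) fell, where all genes gave 25.4% and 25.5%. At the lower concentrations 11 (15.7%) rose and 3 (4.29%) fell, where all genes gave 4.9% and 4.5%. Some of these rises were with chemicals of plate 5 of batch 1, which held no vehicle. The 3 lower calls were Cyp27a1 with 8 µM WY14643 and Hsd3b7 with 8 µM WY14643 and with 400 µM valproic acid. A direct contrast of the higher with the lower concentration was called in 41 of 70 pairs of enzyme and chemical (58.6%, with 40.8% over all genes). Akr1d1 had 12 of its 14 chemicals called, Scp2 10, Cyp27a1 and Hsd3b7 7 each, and Amacr 5.

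Valproic acid had the largest such contrast, since Akr1d1 rose at the lower and fell at the higher concentration. At 400 µM, where 15.1% of genes were higher and 14% lower than with vehicle, its wells held 169 to 326 CPM in batch 1 and 116 to 169 in batch 2, all above vehicle, and at 10000 µM they held 17.1 to 21.0 and 4.54 to 9.29, all below it. The higher minus the lower concentration gave a log2 difference of -4.25 (SE 0.293), in a contrast that called 65.3% of all genes. The corresponding differences were -3.52 for acetaminophen, -2.94 for ranitidine and 2.22 for simvastatin, an inhibitor of cholesterol synthesis, where 76.3%, 57.5% and 24% of all genes were called.

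The concentrations of WY14643 differed little over the genome, with 5.74% of genes called between them. For Akr1d1 200 µM exceeded 8 µM by 0.85 on the log2 scale (adjusted p = 0.0188). Cyp27a1 was lower at 8 µM, with 19.4 to 26.0 CPM in batch 1 and 23.1 to 31.5 in batch 2, than at 200 µM, with 28.6 to 42.8 and 39.8 to 49.9. The wells of these groups did not overlap in either batch, and the log2 difference was 0.69 (SE 0.171, adjusted p = 0.00392).

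The ST assay, with the same probes for Akr1d1 and Amacr and 1 of the 3 Scp2 probes, measured the same lysates and so checks the assay and not the biology. Of 84 pairs of these 3 genes and the treatments, 42 (50%) were called with one sign in both assays, where genes tested in both gave 29.8%. WT called 44 and ST 43, and 76 pairs (90.5%) had the same sign. WT alone called Amacr with 60 µM simvastatin (ST L2FC 0.33, adjusted p = 0.0594) and Scp2 with 80 µM naproxen (ST L2FC 0.31, adjusted p = 0.082), and ST alone called Amacr with 400 µM valproic acid (ST L2FC 0.38, adjusted p = 0.0205, and WT adjusted p = 0.0503). The ST values for Akr1d1 were 2.85 with 200 µM WY14643, -2.95 with 4000 µM ranitidine and -2.96 with 10000 µM acetaminophen.

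**Figure D5:**
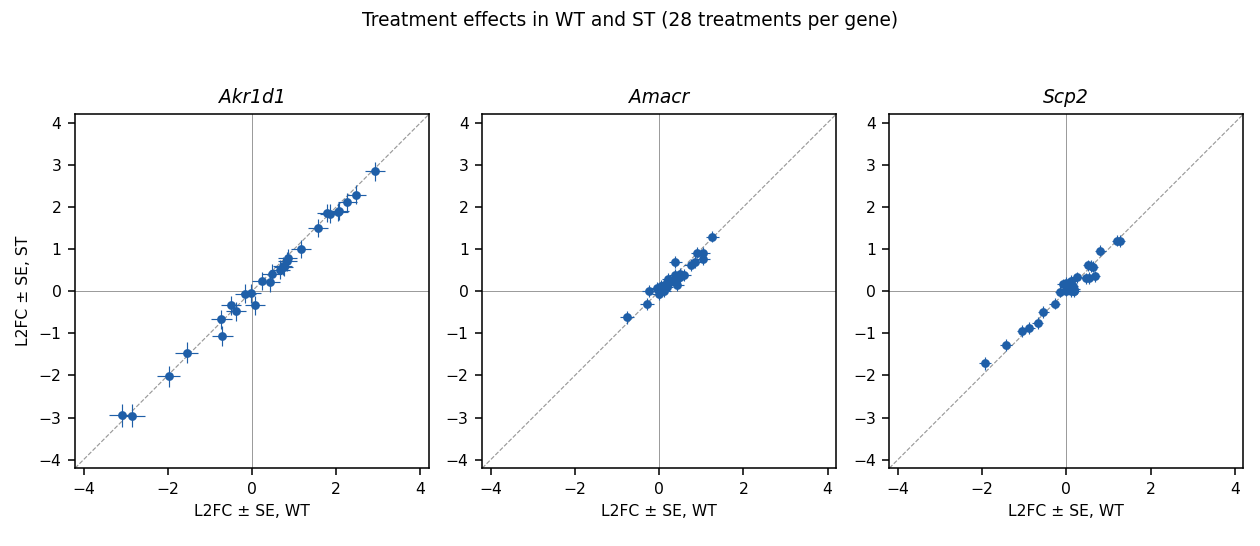
L2FC by ST assay (vertical axis) against L2FC by WT assay (horizontal axis), both on the log2 scale, for Akr1d1, Amacr and Scp2 in the 28 treatments, one point per pair. The sign was the same in 76 of the 84 pairs.

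Around the enzymes, 8 tested genes of a list of 12 further synthesis enzymes and sterol carriers rose in 63 of 224 pairs (28.1%) and fell in 46 (20.5%), to be read against the 15.2% and 15% of all genes. Abcd3, which carries side-chain precursors into the peroxisome, rose with 13 treatments and fell with 1, and its L2FC with 8 µM WY14643 was 4.12 (SE 0.115, adjusted p = 6.4e-76). Slc27a2, an acyl-CoA synthetase that can activate the precursors, rose with 12 and fell with 6, at 3.62 (SE 0.141, adjusted p = 8.8e-57) with 200 µM WY14643. Acox2, the peroxisomal oxidase of the side chain, rose with 11 and fell with 9, and was at -4.37 (SE 0.310, adjusted p = 5.1e-29) with 10000 µM acetaminophen and at 2.13 with 10000 µM caffeine. These 3 genes act in the peroxisome beside Amacr and Scp2. Ch25h, which makes another hydroxylated cholesterol, fell with 13 treatments, most with 2 µM doxorubicin at -4.74 (SE 0.287, adjusted p = 2.6e-33), where 9.07% of genes were higher and 10.3% lower. Akr1c14, a hydroxysteroid dehydrogenase, rose with 4 and fell with 9, Star, a mitochondrial cholesterol carrier, rose with 4, and Stard5 rose with 4 and fell with 7. Stard4, a cytosolic cholesterol carrier, rose with 15 and fell with 1.

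Of 10 regulators of the pathway, 9 were tested, and they rose in 48 of 252 pairs (19%) and fell in 63 (25%), where all genes gave 15.2% and 15%. Nr0b2, the repressor of bile acid synthesis, rose with 7 treatments and fell with 3, with an L2FC of 2.53 (SE 0.298, adjusted p = 1.4e-13) at 200 µM WY14643, which was 3.31 in batch 1 and 1.39 in batch 2. Nr1i2, a xenobiotic receptor, rose with 9 and fell with 8, and was lowest with 10000 µM acetaminophen at -4.45 (SE 0.188, adjusted p = 8.3e-53). Fgfr4, the receptor through which the gut hormone restrains Cyp7a1, fell with 14 treatments but also differed between the controls, at -0.76 (SE 0.122, adjusted p = 4.7e-07) in culture medium alone, which exceeds several of those falls. Slc27a2 was likewise lower in medium, at -0.48 (SE 0.130, adjusted p = 0.00592), and the other 15 genes of both lists were not called there. Nr1h4, the bile acid receptor, rose with 3 and fell with 5. The others rose and fell with 2 and 6 treatments for Nr1h3, 6 and 8 for Nr5a2, 7 and 6 for Hnf4a, 8 and 7 for Ppara, and 6 and 6 for Mafg. The enzyme they are best known to control, Cyp7a1, was below the count needed to set beside them.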

How the data were processed

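TempO-Seq counts of 90 wells of batch 1 and 96 of batch 2 were used for each assay. Per the labels, the authors aligned reads with STAR 2.5.3a to rn6, and per their methods allowed 2 mismatches; the deposited tables hold raw counts per probe and well, with samples as rows. Wells were grouped by the chemical, concentration and batch in their labels. Columns were matched to gene symbols ignoring case, and probes of one gene were added (22253 WT and 2654 ST probes). CPM used the total over all probes of a well. No genome was used, and promoters came from a RefSeq table of GRCr8.

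L2FC came from edgeR 4.0.16 in R 4.3.3 (TMM, quasi-likelihood test, minimum mean of 10 counts per gene), with all groups of both batches in one fit and batch as a term. SE is the absolute L2FC divided by the square root of F. Each batch, the batch by treatment interaction and the ST assay (1760 of 2604 genes) were fitted likewise. The same rat makes batch a block, which the study also modelled. The contrast between concentrations was added after the data were seen. Code was tested on simulated counts.

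The members and gene lists were chosen with earlier results of these data known. Given in full are, per enzyme, up to 2 treatments with the highest and 2 with the lowest L2FC, called in the joint fit and of one sign in both batches, and of the pathway lists the 3 highest and 3 lowest pairs, at most 1 per gene. A planned comparison of L2FC between Cyp7a1 and Cyp7b1, and genes most like them, could not be given, since neither reached a mean of 10 counts. Depth limits such genes, and with 2 rats the p-values measure mainly the spread between wells. Alternatives were RLE normalization, no filter, DESeq2 1.42.0, an absolute L2FC of at least 1, each rat as 1 sample, vehicle of the same plate where the plate had it, no batch term, each replicate number left out, the ST assay and, added later, the shallowest well left out.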

Additional observations from a re-analysis of the deposited data

Results flagged for a closer look

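The change with treatment differed between the batches, which differ in rat, library preparation and sequencing run, in 10 pairs, by the interaction of batch and treatment in edgeR with Benjamini-Hochberg adjusted p under 0.05. Values are the L2FC of batch 2 minus that of batch 1. For Akr1d1 they were 2.09 with 4000 µM ranitidine (adjusted p = 6.4e-05), 1.95 with 10000 µM acetaminophen (0.000629), 1.498 with 15 µM ketoconazole (0.000551) and 1.42 with 60 µM simvastatin (0.00283). The other Akr1d1 values were 1.19 with 0.08 µM doxorubicin (0.00623), 1.16 with 2 µM doxorubicin (0.0172) and 1.15 with 2000 µM naproxen (0.0130). All 7 were positive, while vehicle wells held 60.0 to 65.7 CPM of Akr1d1 in batch 1 and 21.1 to 30.3 in batch 2. The part of this basal level in the difference was not tested.

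With 4000 µM ranitidine, Amacr differed by 0.98 (0.0210) and Cyp27a1 by -1.05 (0.00394), the latter with an L2FC of 0.67 in batch 1 and -0.36 in batch 2. Hsd3b7 with 10000 µM valproic acid differed by -0.95 (0.0229), having fallen further in batch 2. When each replicate number was left out in turn, 3 to 9 differences were called. The calls of Hsd3b7 with valproic acid and of Akr1d1 with naproxen were lost whichever number was left out, and that of Cyp27a1 with ranitidine was kept without number 1 alone. Akr1d1 with acetaminophen and with ranitidine kept the call each time. No single well stood apart in 17 groups of 6 vehicle or medium wells of batch 2, counted per enzyme and assay.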

How the results depend on the processing

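The counts of 33 rises, 32 falls, 42 pairs called in each batch and 42 called in both assays, and the 220 calls over the pathway lists, stayed within 1.5 times under RLE, no filter, DESeq2, each rat as 1 sample and vehicle of the same plate where these were run. Plate 5 of batch 1 held no vehicle, so its 6 chemicals kept the vehicle of plate 4 for batch 1 there, and the last alternative changed their batch 2 part alone. Calling only changes of 1 or more in log2 left 15 rises, 13 falls, 23 pairs in each batch, 18 in both assays, 110 pathway calls and 0 in medium. ST in place of WT, with 3 of the enzymes, gave 13 falls, 3 differences between batches and 0 calls in medium. The 1 call in medium became 0 without the filter and with each rat as 1 sample. Leaving out each replicate number gave 26 to 30 rises, 28 to 29 falls, 35 to 40 pairs in each batch, 33 to 37 in both assays, 192 to 204 pathway calls, 3 to 9 differences between batches and 0 to 0 calls in medium.

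Batch pairs the samples, since each batch is 1 rat. Without this block there were 30 rises, 30 falls, 36 pairs in both assays, 193 pathway calls and 0 in medium. Of the 17 pairs given in full, only Hsd3b7 with 15 µM ketoconazole lost its call under the alternatives other than the limit on L2FC. Asking for an absolute L2FC of at least 1 also left out Amacr with 4000 µM ranitidine (-0.75). No direction reversed under any alternative run. The number of treatments with Cyp7a1 below Cyp7b1 was not run, since neither was tested.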

Other observations

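The highest caffeine concentration moved the neighbouring genes of the pathway unevenly, and these examples were chosen after their values were seen. With 10000 µM caffeine the L2FC was 2.36 for Akr1c14 (SE 0.169), 2.18 for Abcd3 (SE 0.112), 1.92 for Ppara (SE 0.200), 1.78 for Slc27a2 (SE 0.137) and 1.72 for Nr5a2 (SE 0.136), each called in the joint fit by edgeR. Fgfr4 was at -1.49 (SE 0.144) in the same wells. Over all genes 34.6% were higher and 31.6% lower there.

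With 10000 µM acetaminophen, Nr0b2 was at -4.36 (SE 0.800), Akr1c14 at -3.84 (SE 0.209), Ppara at -3.26 (SE 0.273), Nr1h4 at -2.86 (SE 0.189) and Hnf4a at -2.85, while Stard4 was at 1.58 (SE 0.132) and Mafg at 1.53. Over all genes 38.8% were higher and 40.1% lower, and the hepatocyte markers were below vehicle in both batches.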
